A study of Homo sapiens with 4 samples.

Results

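The 10 genes described here encode parts of the Notch pathway: the ligands JAG1, DLL4 and DLL1, the receptors NOTCH1, NOTCH2 and NOTCH3, the receptor-modifying enzyme LFNG, and the transcriptional repressors HES1, HEY1 and HEYL. Their accessible regions were taken from an ATAC-seq peak table as the peaks that carry a member's gene symbol, plus the peaks whose nearest protein-coding gene body lay within 100 kb and was a member. This gave 48 of 60875 peaks. All 48 came through the nearest gene, and 8 of them also carried the symbol of a member.

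ATAC-seq uses the transposase Tn5 to insert sequencing adapters into open chromatin. It was done in WTC11, a human line of induced pluripotent stem cells in wide use, of wild-type genotype, on day 6 of differentiation towards cardiac progenitor cells. The 2 high libraries came from progenitors whose differentiations ended in a high purity of cardiomyocytes, and the 2 low libraries from progenitors whose differentiations ended in a low purity. All 4 libraries share the cell line, the genotype and the day of harvest. The table gives, per peak, 1 mean normalized count over all 4 libraries and the authors' DESeq2 comparison of high and low, with no value per library. Library depth is thus unknown, and the only trace of replicate spread is the standard error (SE) that the authors' fit gave each log2 fold change. A negative log2 fold change goes with the authors' Up mark and a positive one with their Down mark. The sources used here do not name the numerator, so a peak is placed on the Up side (negative) or the Down side (positive) and assigned to neither group. A peak is called changed where its adjusted p was under 0.05. In a bulk sample, fewer cells with an open region and less opening per cell cannot be told apart.

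Notch signalling passes between touching cells. A Delta-like or Jagged ligand on one cell binds a Notch receptor on the next, the receptor is cut, and its intracellular part enters the nucleus and joins the DNA-binding protein RBPJ at target genes such as those of the HES and HEY repressors. Fringe enzymes such as LFNG add sugars to the receptor and alter which ligands it answers to. In the developing heart the pathway is known for its part in endocardium, valve formation and trabeculation, and in the balance between progenitor states.

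Peaks covered the RefSeq starts of 6 members (JAG1, DLL4, NOTCH1, NOTCH2, HES1 and HEYL) and an end of HEY1. None of these was called changed, while 6 peaks elsewhere in the genes or outside them were. Peaks on gene starts were seldom called in the whole table too: 1.17% of 11384, against 7.16% of the 46791 peaks off them. The start regions of a ligand gene, JAG1, and of a pair of target genes, HES1 and HEYL, are shown. Each lay wholly inside a peak, and the target genes were picked because they hold the letters TGGGAA, the core that RBPJ binds. The start regions of DLL4 and NOTCH1 also lay wholly inside a peak and are not shown. Each sequence shown is the 250 bases before the gene's start, 5′ to 3′ on the gene's strand, from RefSeq (GRCh38.p14). Capitals mark TGGGAA or GTGGGAA, or their reverse complements TTCCCA or TTCCCAC.
JAG1 (chr20:10674000-10674249, minus strand): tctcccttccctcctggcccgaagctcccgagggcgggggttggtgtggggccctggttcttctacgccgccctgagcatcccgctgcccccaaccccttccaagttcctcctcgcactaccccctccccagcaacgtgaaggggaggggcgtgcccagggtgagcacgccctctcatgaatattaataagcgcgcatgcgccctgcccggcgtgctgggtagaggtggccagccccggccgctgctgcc
HES1 (chr3:194135898-194136147, plus strand): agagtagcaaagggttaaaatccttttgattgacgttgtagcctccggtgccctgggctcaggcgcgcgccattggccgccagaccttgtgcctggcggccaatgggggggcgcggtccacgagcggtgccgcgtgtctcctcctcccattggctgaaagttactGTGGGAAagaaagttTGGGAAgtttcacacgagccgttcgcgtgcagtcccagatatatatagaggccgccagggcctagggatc
HEYL (chr1:39639644-39639893, minus strand): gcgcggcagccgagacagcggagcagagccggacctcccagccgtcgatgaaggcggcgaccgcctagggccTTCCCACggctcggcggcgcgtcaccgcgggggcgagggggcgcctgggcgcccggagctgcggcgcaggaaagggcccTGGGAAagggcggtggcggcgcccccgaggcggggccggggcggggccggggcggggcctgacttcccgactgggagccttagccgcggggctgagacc

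Motifs were searched on both strands, overlaps included, in windows of 250 bases before to 50 after each start: TGGGAA and the longer GTGGGAA that contains it, the E box CACGTG and the N box CACNAG, letters bound by HES and HEY proteins. The sequence table held 9 windows for 8 of the 10 members (LFNG had 2). TGGGAA was present in 4 of the 9 windows and in 24.0% of all 35116 windows. HES1 held TGGGAA 84 and 70 bases before its start, both on the gene's strand, the first of them as GTGGGAA. HEYL held it 99 bases before the start on the gene's strand and 178 bases before it on the opposite strand, that one as GTGGGAA. Across all windows, 3.80% held TGGGAA more than once and 6.25% held GTGGGAA. The other 2 matches were in the LFNG windows, which no peak covered. CACNAG was found in 6 of the 9 windows and 38.0% of all windows, with 4 matches at HES1. CACGTG was found in 0 of the 9 and 7.26% of all, and the JAG1 window held none of the 4 motifs. A match is a description of the letters and not evidence of binding.

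Of the 48 peaks, 6 were called changed, 4 on the Up and 2 on the Down side, at JAG1, NOTCH1, LFNG, HES1 and HEY1. That is 12.5% of the peaks, against 6% of all 60875 peaks (Up side 2.36%, Down side 3.64%) and 5.41% of the 53000 peaks within 100 kb of a protein-coding gene (Up side 2.32%, Down side 3.09%). By gene, 5 of 10 members had a changed peak, against 13.9% of all 16881 protein-coding genes with a peak in that distance. Of the 10234 with 2 to 8 peaks, the range of the members, 15.4% had one. That set shares the range only and was not matched to the members on the number of peaks per gene. The members were chosen with earlier results of these data known, and these differences from the background were not tested. An adjusted p under 0.01 left 2 Up side and 1 Down side peaks, against 3.11% of all peaks (1.06% and 2.05%), and one under 0.1 gave 4 and 3, against 8.37% (3.6% and 4.77%). The authors' marking took in 3 Up and 2 Down peaks, against 4.86% and 4.98% of all. Among the 34 member peaks whose mean count reached the median of the table, 4 and 1 were called with p adjusted over such peaks alone, against 3.3% and 4.39%. At an unadjusted p under 0.05 there were 12 member peaks (25.0%), against 16.4% of all peaks. The median log2 fold change of the 48 peaks was -0.04, against 0.00 over all peaks, with 26 negative and 22 positive. The median absolute change was 0.31 log2 units in the members and 0.31 over all peaks.

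**Figure D1:**
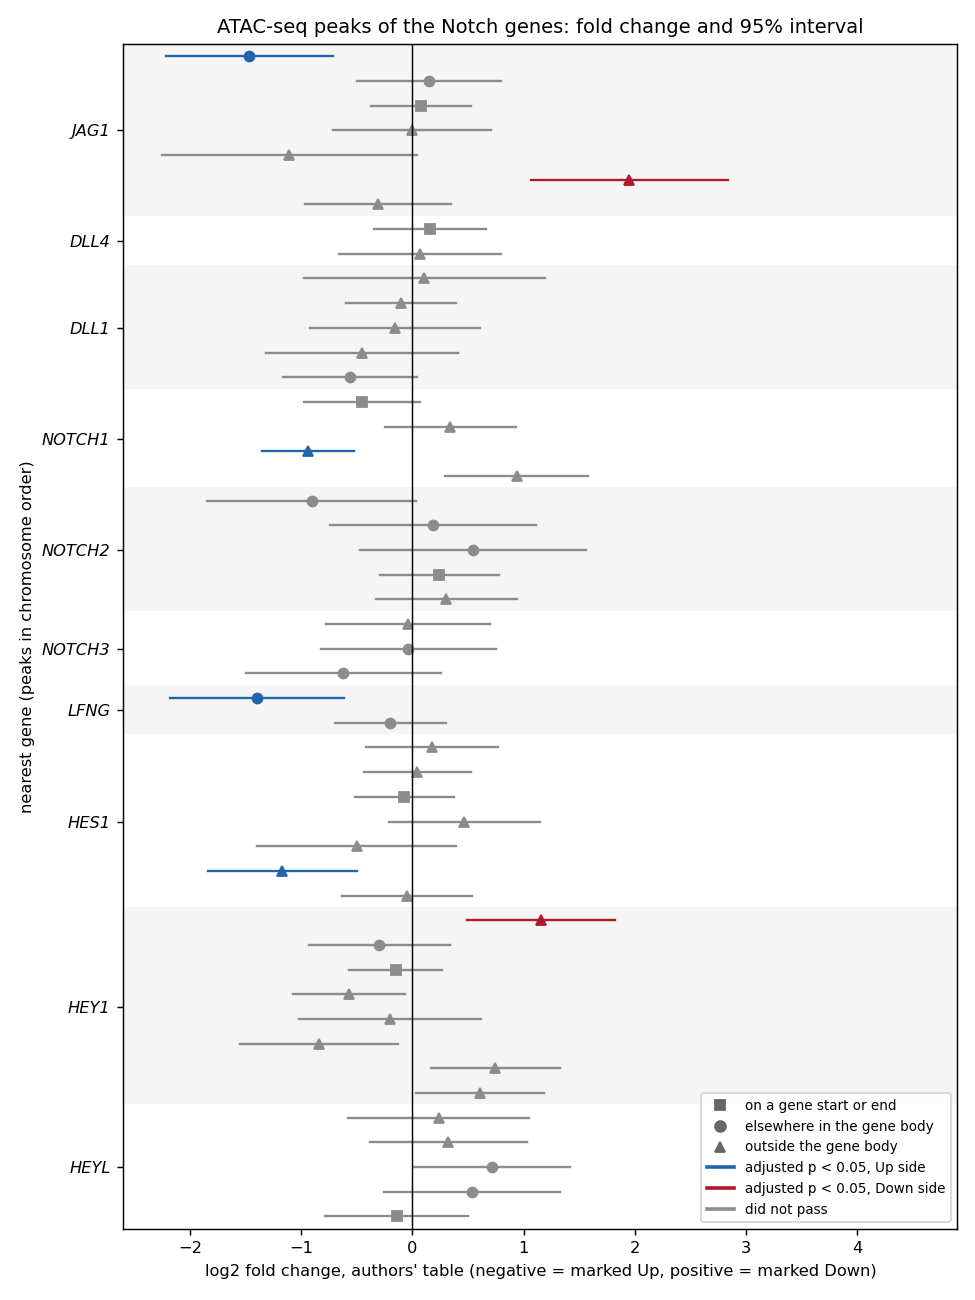
Log2 fold change (x axis) of each of the 48 Notch gene peaks in the authors' table, with its 95% interval, grouped by gene (y axis) in chromosome order. The 6 coloured peaks passed an adjusted p under 0.05; all squares, on a gene start or end, lie between -0.45 and 0.24.

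Mean normalized counts of the 48 peaks ran from 21.8 to 391 with a median of 67.7, against a median of 47.8 over all peaks. The peaks were 272 to 912 bp wide. At the edge of the 100 kb rule, the peak just inside it, 96417 bp from HES1, stood in the authors' deposited table at -0.05 ± 0.30 (SE). The peak just outside, 103748 bp from JAG1, stood in the authors' deposited table at -0.68 ± 1.17 (SE). Markers of the labelled cells were present: all 11 cardiac progenitor markers had a peak by the same rule. So did 4 of 4 pluripotency, 7 of 7 endothelial, 5 of 5 endoderm, 2 of 2 neural and 3 of 3 fibroblast and smooth muscle markers, so presence of a peak does not separate cell types. Endoderm marker peaks numbered 24, of which 10 changed on the Up side and 0 on the other. The 42 endothelial marker peaks had 2 changed on each side and the 77 cardiac progenitor marker peaks 3 on each side. The 14 fibroblast and smooth muscle marker peaks had 2 on the Down side, and the 14 pluripotency and 14 neural marker peaks had 0. The part of these cell types in the Notch gene peaks was not tested.

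Among the ligands, JAG1 changed on both sides, and no peak of DLL4 or DLL1 passed. JAG1 is a ligand gene whose loss causes Alagille syndrome, with heart defects. It had 7 peaks within 100 kb. The largest change was 44674 bp outside the gene body, upstream of the start (chromosome 20, 10718673 to 10719088): its mean count was 39.9 and the authors' deposited table gives it 1.95 ± 0.45 log2 units (SE). This is a 3.86-fold difference on the Down side (95% interval 1.06 to 2.84 log2 units, adjusted p = 0.0011). A second JAG1 peak, inside the gene and 19163 bp past its start (chromosome 20, 10654620 to 10655053), stood in the authors' deposited table at -1.47 ± 0.38 (SE), with a mean count of 57.1. That is a 2.76-fold difference on the Up side (95% interval -2.22 to -0.72, adjusted p = 0.0051). The authors label this peak MIR6870, a microRNA gene 4925 bp away within JAG1. The intervals of these 2 peaks lie on opposite sides of 0 and do not meet.

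The JAG1 start itself, in the sequence shown above, had the highest mean count of the 7 peaks, 183, and the authors' deposited table gives it 0.07 ± 0.23 log2 units (SE). Its 95% interval ran from -0.38 to 0.52 (adjusted p = 0.947). The neighbouring peak, 783 bp before the gene, stood in the authors' deposited table at 0.00 ± 0.36 (SE), and a peak 2326 bp past the start at 0.15 ± 0.33 (SE). A weak peak 7531 bp from the gene stood in the authors' deposited table at -1.11 ± 0.58 (SE, adjusted p = 0.333), at a mean count of 21.8, the lowest of all 48. The remaining JAG1 peak, 95649 bp away, stood in the authors' deposited table at -0.31 ± 0.33 (SE).

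DLL4, the Delta-like ligand of arterial endothelium, had 2 peaks. The peak on its start (chromosome 15, 40928924 to 40929596) had a mean count of 153 and stood in the authors' deposited table at 0.16 ± 0.26 (SE, adjusted p = 0.870). A peak 2253 bp past the gene stood in the authors' deposited table at 0.07 ± 0.37 (SE). DLL1, the Delta-like ligand of somite and neural patterning, had 5 peaks, of which 4 were negative and none spanned either end of the gene. The one inside the gene (chromosome 6, 170286432 to 170287044) had the smallest p of them, and the authors' deposited table gives it -0.56 ± 0.31 (SE, adjusted p = 0.364). The other 4 lay 12313 to 69723 bp away and ran from -0.45 to 0.11. The strongest of these, 57158 bp away with a mean count of 135, stood in the authors' deposited table at -0.10 ± 0.25 (SE). At an unadjusted p under 0.05 there was also 0 of the 7 DLL4 and DLL1 peaks.

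**Figure D2:**
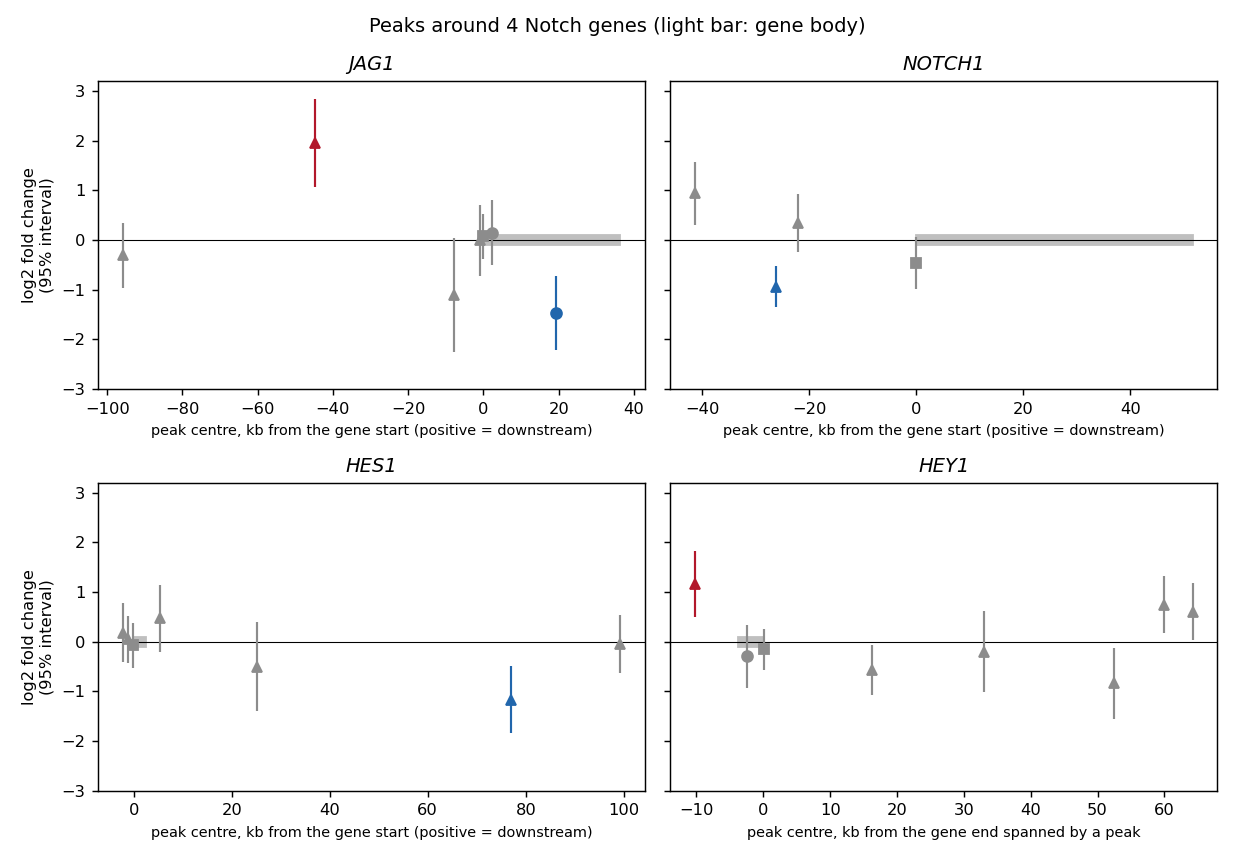
Log2 fold change with 95% interval (y axis) of each peak against its distance in kb (x axis) from the start of JAG1, NOTCH1 and HES1, and from the HEY1 gene end that a peak spans; light bars are gene bodies. Blue peaks changed on the Up side and red ones on the Down side: the JAG1 peaks at 1.95 and -1.47 flank a start region at 0.07.

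Among the receptors, 1 of 12 peaks was called changed, upstream of NOTCH1. NOTCH1 encodes the receptor whose loss in human families is tied to bicuspid aortic valve. Its changed peak (chromosome 9, 136571970 to 136572680) lay 25922 bp outside the gene on the upstream side and had the highest mean count of all 48 member peaks. It was 391 over 710 bp, above 98.5% of all peaks, and the authors' deposited table gives -0.94 ± 0.21 log2 units (SE). This is a 1.92-fold difference on the Up side (95% interval -1.35 to -0.53, adjusted p = 6.72e-04). The authors' own marking, which asks for a log2 fold change of 1 or more in size, leaves it unmarked. No other protein-coding gene lay nearer, EGFL7 being 86176 bp away, but the noncoding gene LOC124902311 lay 2872 bp away.

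A peak 41125 bp upstream of NOTCH1 pointed the other way but did not pass, with 0.94 ± 0.33 log2 units by the authors' deposited table (SE; adjusted p = 0.0623). The peak 21983 bp upstream, between the changed one and the gene, stood in the authors' deposited table at 0.34 ± 0.30 (SE). The peak on the NOTCH1 start (chromosome 9, 136545847 to 136546432), which also overlaps MIR4674 and carries its label, had a mean count of 130. It stood in the authors' deposited table at -0.45 ± 0.27 (SE, adjusted p = 0.422), the largest absolute change among the members' start peaks. Its 95% interval, -0.98 to 0.07, does not exclude a difference of almost 1 log2 unit on the Up side.

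NOTCH2, the receptor whose mutations also cause Alagille syndrome, had 5 peaks, and none passed. The start peak (chromosome 1, 120069190 to 120069834) had a mean count of 115 and stood in the authors' deposited table at 0.24 ± 0.27 (SE, adjusted p = 0.789). Inside the gene, the peak with the smallest p stood in the authors' deposited table at -0.90 ± 0.48 (SE, adjusted p = 0.336), at a mean count of 32.2. The other 3 peaks ran from 0.19 to 0.54. NOTCH3, the receptor of vascular smooth muscle, had 3 peaks with mean counts of 38.4 to 52.8 and none on its start, the nearest being 19543 bp from the start window. Their values in the authors' deposited table ran from -0.62 ± 0.45 (SE, adjusted p = 0.569) to -0.04 ± 0.40 (SE). The NOTCH3 peak with the highest mean count, 52.8, lay 8200 bp outside the gene and stood in the authors' deposited table at -0.04 ± 0.38 (SE). At an unadjusted p under 0.05 there was also 0 of the 8 NOTCH2 and NOTCH3 peaks.

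LFNG, the lunatic fringe glycosyltransferase, had 2 peaks, both inside its gene body, and 1 changed. The changed peak (chromosome 7, 2516168 to 2516497) lay between the gene's 2 RefSeq start windows, 3590 bp past the first and 1116 bp before the second. With a mean count of 49.3 it stood in the authors' deposited table at -1.39 ± 0.40 (SE), a 2.63-fold difference on the Up side (95% interval -2.18 to -0.61, adjusted p = 0.0135). The other peak, centred 1930 bp past the second start, had a mean count of 132 and stood in the authors' deposited table at -0.20 ± 0.25 (SE, adjusted p = 0.826).

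Among the targets, HES1 and HEY1 each had 1 changed peak, on opposite sides, and HEYL had none. HES1, the repressor that is a classical target of Notch, had 7 peaks. Its start peak (chromosome 3, 194135863 to 194136319), which covers both TGGGAA matches shown above, had a mean count of 177 and stood in the authors' deposited table at -0.07 ± 0.23 (SE, adjusted p = 0.948). The 95% interval of that value, -0.52 to 0.38, excludes a difference of 1 log2 unit on either side. The 2 peaks 934 and 2093 bp before the gene stood in the authors' deposited table at 0.05 ± 0.24 and 0.18 ± 0.30 (SE). All 3 carry the HES1 label. The changed peak (chromosome 3, 194212730 to 194213352) lay 73998 bp downstream of the gene, inside the noncoding gene LINC02036. Its mean count was 79.0 and the authors' deposited table gives it -1.17 ± 0.34 log2 units (SE), a 2.25-fold difference on the Up side (95% interval -1.84 to -0.50, adjusted p = 0.0165). The other 3 HES1 peaks ran from -0.50 to 0.47 and did not pass.

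HEY1, a hairy-related repressor of the developing atria and endocardium, had 8 peaks, the most of any member. The peak spanning an end of the gene (chromosome 8, 79767443 to 79768355) also overlaps LINC01607 and had the second highest mean count of the 48, 257 over 912 bp. It stood in the authors' deposited table at -0.15 ± 0.21 (SE, adjusted p = 0.845). The changed peak (chromosome 8, 79757312 to 79757876) lay 6134 bp from the gene, beyond its other end, with a mean count of 80.6. By the authors' deposited table it stood at 1.15 ± 0.34 (SE), a 2.22-fold difference on the Down side (95% interval 0.49 to 1.82, adjusted p = 0.0174). On the LINC01607 side the peaks had both signs and did not pass. Those 15762 and 52281 bp away stood in the authors' deposited table at -0.57 ± 0.26 (SE, adjusted p = 0.212) and -0.84 ± 0.36 (SE, adjusted p = 0.181). Those 59628 and 63847 bp away stood in the authors' deposited table at 0.75 ± 0.30 (SE, adjusted p = 0.125) and 0.61 ± 0.29 (SE, adjusted p = 0.267). The negative and the positive peaks given here all overlap the noncoding gene LOC101927040, and the one 15762 bp away overlaps LINC01607 as well. With the changed peak, 5 of the 8 HEY1 peaks had an unadjusted p under 0.05, 3 on the Down side and 2 on the Up side.

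HEYL, the HEY-like repressor, had 5 peaks, and 4 of them were positive. The start peak (chromosome 1, 39639417 to 39640136) was the exception, with -0.14 ± 0.33 by the authors' deposited table (SE; adjusted p = 0.924). It had a mean count of 68.3, the lowest among the members' start peaks, and covers both TGGGAA matches shown above. The peak with the smallest p, inside the gene, stood in the authors' deposited table at 0.72 ± 0.36 (SE, adjusted p = 0.285). The other 3 ran from 0.23 to 0.54.

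Taking the members by position, the 7 peaks on a start window, or for HEY1 on a gene end, had a median mean count of 153, against 58.7 for the other 41. None of these 7 was called changed by the authors' DESeq2 test, also at an unadjusted p under 0.05, and their 95% intervals reached from -0.98 to 0.78. The 13 other peaks inside gene bodies had 2 changed, both on the Up side, and the 28 outside had 4, 2 on each side. Over the whole table, 1.17% of the 11384 peaks on a start window were called changed, against 7.16% of the 46791 peaks off them on chromosomes with such windows. The 8 peaks that carry a member's symbol, all within 2093 bp of their gene, ran from -0.15 to 0.18, and 0 of them passed.

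**Figure D3:**
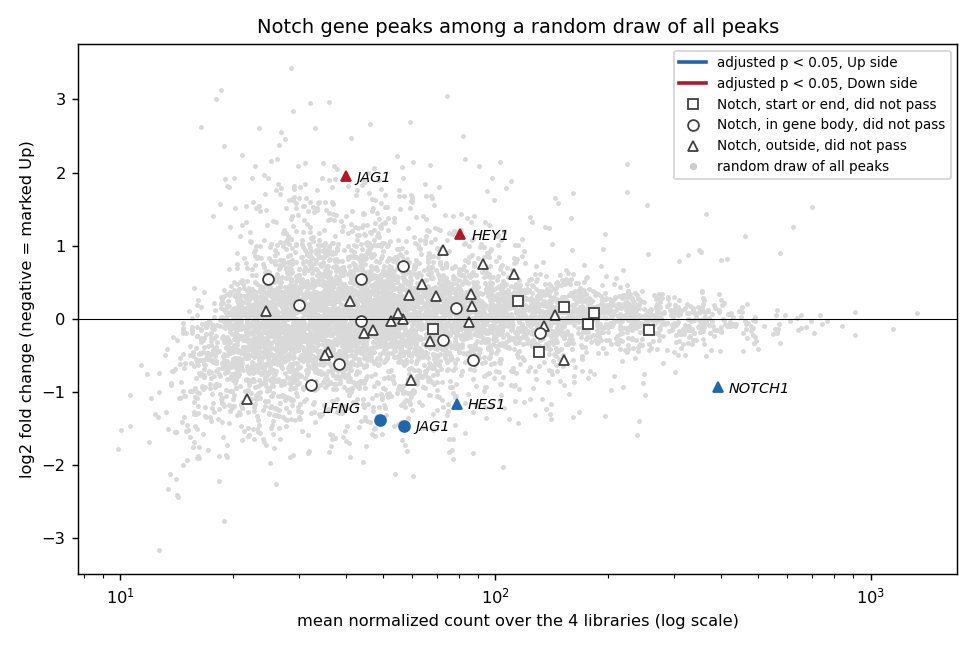
Log2 fold change (y axis) against mean normalized count (x axis, log scale) for the 48 Notch gene peaks, over a random draw of 6000 of all peaks in grey. Filled symbols passed an adjusted p under 0.05. The changed NOTCH1 peak has the highest mean count, 391, and the squares, on a gene start or end, lie between -0.45 and 0.24.

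The rest of the pathway was taken from a list of 52 genes, of which 46 had a peak by the same rule, 211 peaks in all. Of these, 12 were called changed (5.69%, against 6% of all peaks), 6 on each side, near 9 genes. The median log2 fold change was 0.00. The Mastermind-like genes encode coactivators that bridge the Notch and RBPJ complex to the transcription machinery. MAML1 had 1 changed of 4 peaks, MAML2 2 of 13 and MAML3 1 of 32, and nothing is read from them as a group. The changed MAML1 peak stood in the authors' deposited table at 1.61 ± 0.41 (SE, adjusted p = 0.00332) and the MAML2 peaks at 1.65 ± 0.46 and 1.56 ± 0.35 (SE, adjusted p = 0.0117 and 6.87e-04) on the Down side. The MAML3 peak stood in the authors' deposited table at -1.02 ± 0.29 (SE, adjusted p = 0.0118) on the Up side. NEURL1, which encodes a ubiquitin ligase that acts on ligand uptake, had 1 changed of 8 peaks. It lay inside the gene and stood in the authors' deposited table at -1.57 ± 0.44 (SE, adjusted p = 0.0101).

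Near NEURL1B, 3 of 10 peaks changed, 70659 to 83700 bp from the gene, and the authors' deposited table gives them, in chromosome order, 1.47 ± 0.46, -2.16 ± 0.35 and -1.21 ± 0.31 log2 units (SE). Of the 46 genes, NEURL1B and MAML2 were the ones with 2 or more changed peaks, and NEURL1B had them on both sides. Of 444 protein-coding genes with 2 or more changed peaks within 100 kb, 43% had them on both sides. The nonclassical ligand gene DLK1 had a peak 53366 bp away with -1.19 ± 0.25 by the authors' deposited table (SE; adjusted p = 2.19e-04). PSEN2, of the gamma-secretase that cuts the receptor, had one 48902 bp away with 1.16 ± 0.31 by the authors' deposited table (SE; adjusted p = 0.00647). A peak inside the corepressor gene TLE1, with a mean count of 29.3, stood in the authors' deposited table at -1.55 ± 0.52 (SE, adjusted p = 0.0486). Another TLE1 peak pointed the other way but did not pass, with 1.39 ± 0.48 by the authors' deposited table (SE, adjusted p = 0.0554).

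No peak of RBPJ passed: the one with the smallest p of its 12 stood in the authors' deposited table at 1.28 ± 0.44 (SE, adjusted p = 0.0575). HEY2, the ventricular HEY repressor, had 2 peaks, and the authors' deposited table gives the one with the smaller p 0.53 ± 0.43 (SE, adjusted p = 0.640). NRARP, a feedback inhibitor, had 1 peak, with -0.42 ± 0.40 by the authors' deposited table (SE; adjusted p = 0.719). JAG2, HES2, HES5, DTX2, RBPJL and RFNG had no peak by this rule. The 27 peaks that carry the symbol of a gene on the list held 0 changed peaks by the authors' DESeq2 test and 1 at an unadjusted p under 0.05. Of all peaks 6% were called changed, and of the 11384 peaks on a start window 1.17%. The share over all peaks that carry a symbol was not computed, so nothing is read from this count.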

How the data were processed

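ATAC-seq was done on 50000 to 100000 cells per sample with paired-end reads of 42 bp, per the labels' protocols; the labels name total RNA as the molecule, at odds with the assay. Per the submitters' processing notes BWA, MACS2, DESeq2 and GRCh38 (hg38) were used, with no version or setting named. The sources used here say nothing of read shifting, duplicate removal or pooling before peak calling. Any of these could alter a peak's count. Per the file headers, the deposited table holds the mean normalized count (a signal averaged over libraries), the log2 fold change and its SE, the Wald score, the p-value and the adjusted p, all by the authors. It also holds the authors' Up or Down marking, which follows a fold change of 1 or more log2 units in size together with an unadjusted p under 0.05, with 0 exceptions. Benjamini-Hochberg adjustment of the deposited p-value over all 60875 peaks gave the deposited adjusted p within 3.4e-06. Shrinkage of the fold changes is not stated. The labels call replicates biological and say no more of their origin, so whether they came from separate differentiations is unknown. A p-value covers only the spread among these 4 libraries.

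Groups came from the sample titles. No test per peak was run here: calls are the authors' adjusted p under 0.05. The 95% intervals are the log2 fold change with the normal quantile times its SE. Peaks were assigned with gene bodies from RefSeq (GRCh38.p14), where all 10 members were found; ties were kept. Coordinates are the table's own, with an unstated base (0 or 1) for starts. Exons and introns were not used here. Python 3.11.15, numpy 2.4.6, pandas 2.3.3 and scipy 1.17.1 were used, and the assignment, adjustment and recentring were tested on simulated data. The members, the pathway list, the markers and the motifs were chosen with earlier results of these data known. Every member was named, with its changed peaks and the peaks of smallest p, nearest the start and highest mean count; of the pathway list, genes with a changed peak and HEY2, RBPJ, NRARP and JAG2. With 1 contrast, genes alike in pattern could not be sought. The result of 1 gene on the pathway list is not reported here.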

Additional observations from a re-analysis of the deposited data

How the results depend on the processing

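Symbol labels alone leave 8 member peaks and 27 other pathway peaks, with 0 changed peaks on either side and 0 member genes by the authors' DESeq2 test, and 0 and 1 peaks at an unadjusted p under 0.05. The share over all peaks that carry a symbol was not computed. It was 1.17% for all peaks on a start window. At an adjusted p under 0.01, members keep 2 Up side and 1 Down side peaks in 2 genes (NOTCH1 and JAG1), and the other pathway genes 3 and 3 of 211. Of all peaks, 1.06% and 2.05% passed on these sides. HES1, HEY1 and LFNG drop out. At an adjusted p under 0.1 the other pathway genes have 12 of 211 peaks on the Down side, against 4.77% of all peaks. The authors' marking gives the other pathway genes 10 and 14 of 211 peaks, and members 3 and 2, without NOTCH1, against 4.86% and 4.98% of all peaks. A limit of 50 kb leaves 3 Up side peaks among 193 in the other pathway genes and drops the HES1 peak. Over the 30438 peaks whose mean count reached the median, members have 1 Down side peak, since the JAG1 peak upstream lies below that median. The other pathway genes have 3 among 112, against 4.39% of these 30438 peaks. The nearest RefSeq gene of any kind, an alternative chosen after the data were seen, gives members 29 peaks, of which 2 Up side and 1 Down side peaks changed, in 3 genes. It gives the NOTCH1 and HES1 peaks and the upstream JAG1 peak to noncoding genes. Of all peaks 6% were called changed, and no share was computed under this assignment or under the 50 kb limit. The median log2 fold change of the member peaks stayed between -0.10 and 0.05 under these alternatives and recentring on the running median over 2001 peaks. Recentring turned the sign of 1 member peak, which had not passed (HES1, 934 bp before the gene, -0.0045), and changed no call among the 48.

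No paired analysis was possible because the table holds no value per library. For the same reason leaving out each library, other scalings, edgeR and count filters were not run. The unknown depth limits what a peak that did not pass can show: the median SE of the 48 peaks was 0.34 log2 units.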

Other observations

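JAG1, the member with 2 changed peaks, had them on opposite sides. Of 444 protein-coding genes with 2 or more changed peaks within 100 kb, 191 (43%) had them on both sides. In 4 member peaks the authors' label names a noncoding gene while the peak overlaps a member's gene body: MIR6870 in JAG1, MIR4674 at NOTCH1, MIR6795 in NOTCH3 and LINC01607 at HEY1. The labelled gene overlapped the peak at MIR4674 and lay 4925, 1717 and 2608 bp away for the other 3, in that order. In all, 40 of the 48 peaks carry no member's symbol, and all 6 changed peaks are among them.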
